A study of Mus musculus with 8 samples.

Results

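The baseline transcriptome of the embryonic mouse small intestine was described from 4 control embryos at E15.5 (the age in days of gestation), out of 8 embryos in the series. The genes described were the 21885 protein-coding genes of the deposited table, out of 55681 genes of all kinds. Of these, 12361 had a mean FPKM of at least 1 over the controls and are termed expressed genes here. FPKM is the number of sequenced fragments scaled to the length of the gene and the depth of the library, so levels of different genes are set side by side per length. Each library was the RNA of 1 whole small intestine, and the series also holds 4 Slmap-cKO intestines that were not used here. The control embryos had the genotype Slmap fl/fl on a C57BL6J background. They therefore carried loxP-flanked Slmap alleles without the Cre recombinase that the Slmap-cKO embryos carry, and they are not wild type. Neither litter, sex nor handling date is given in the labels. With a single group, levels and spreads are given as a description and no difference was tested.

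At this stage of gestation the mouse small intestine is changing from a layered epithelial tube into a villus-bearing organ. Its inner lining comes from endoderm and differentiates into absorptive enterocytes and secretory cells. The wall around it comes from mesoderm and holds fibroblasts, smooth muscle and vessels, while neural crest cells that migrated into the wall form the enteric nervous system. Hedgehog ligands made by the epithelium and BMP, Wnt and PDGF signals exchanged with the mesenchyme shape both layers. In whole-organ RNA, fewer cells of a type and less RNA per cell cannot be told apart, and this holds for every level given.

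Controls 1 to 4 held 16759748, 15969723, 15663837 and 16663368 reads assigned to genes, recovered from the FPKM values. A gene of 1 kilobase at 1 FPKM rested on 16.8, 16.0, 17.1 and 17.6 reads in controls 1 to 4. These numbers follow the depth that FPKM was scaled to. That depth was close to the assigned reads in controls 1 and 2 and above them in controls 3 and 4. A larger depth lowers every FPKM of a library. The part of this in levels that were lower in controls 3 and 4 was not tested. The protein-coding FPKM summed to 264232, 266644, 243133 and 251918 in controls 1 to 4. Size factors, each the median ratio of a library to the geometric mean of the 4, were 1.03, 1.03, 0.959 and 0.985. Levels are given without division by these factors, so small differences between controls 1 and 2 and controls 3 and 4 can be of that size. Controls 1 and 2 stood apart from controls 3 and 4. Over the 12361 expressed genes, the Pearson correlation of log2(FPKM + 1) was 0.994 between controls 1 and 2 and 0.991 between controls 3 and 4, and it lay between 0.966 and 0.977 for the pairs that crossed. The median fold between the libraries of a pair was 1.06 for controls 1 and 2 and 1.09 for controls 3 and 4, against 1.18 to 1.22 across. A first principal component with 78.4% of the variance placed the controls at -19.0, -18.3, 22.6 and 14.7. Controls 3 and 4 had at least 1 read on 25832 and 25934 genes of all kinds, and controls 1 and 2 on 23961 and 23883. The deviation of a gene from its mean over the controls had a Spearman correlation with its GC content of 0.31 and 0.23 in controls 1 and 2, and of -0.25 and -0.28 in controls 3 and 4 (12349 genes of 1 library each time, which share depth and normalization). What separates the pairs was not tested, so values in all 4 controls are given throughout. The pairs were seen in these same genes, so a gene or list that divides them without overlap is not set apart by that. The share of all 12361 expressed genes that divide so is not given.

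Of the 21885 protein-coding genes, 4195 had no read in any control, 2336 lay above 0 and under 0.1 FPKM, and 2993 lay between 0.1 and 1 FPKM. Among the expressed genes, 7179 were at 1 to 10 FPKM, 4847 at 10 to 100, 326 at 100 to 1000, and 9 at 1000 or more. Their median was 8.04 FPKM. The just included genes Col8a1, Slco2b1 and Gm4924 had means of 1.0002, 1.0001 and 1.00001 FPKM, and the just excluded Arsg, Kcnip1 and Acer3 had 0.998, 0.998 and 0.997 FPKM. The number expressed was similar in each library, from 12223 in control 1 to 12380 in control 4, and 11816 genes (95.6% of the expressed genes) reached 1 FPKM in every control.

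**Figure D1:**
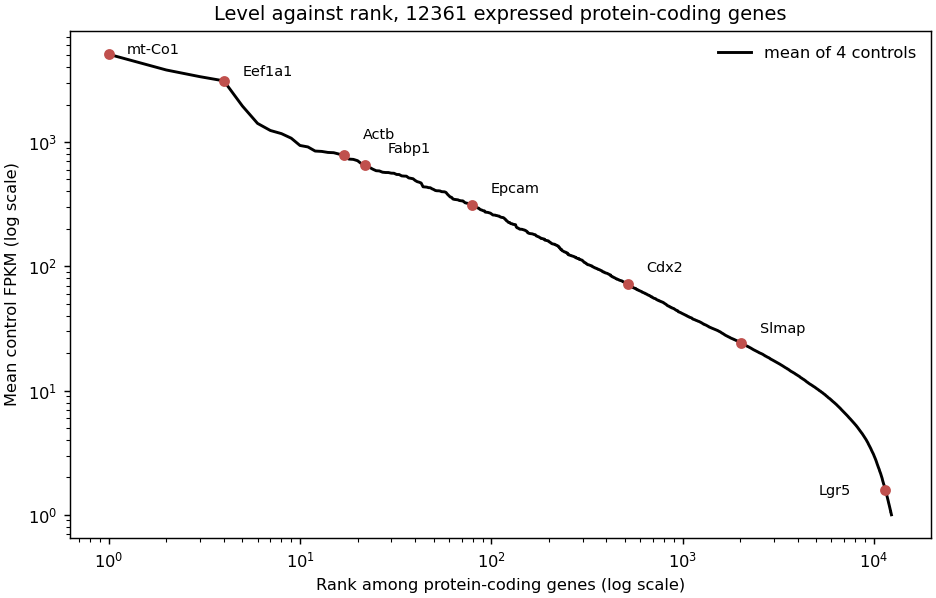
Mean FPKM over the 4 controls (log scale) against rank (log scale) for the 12361 expressed protein-coding genes, with 8 genes marked by red points. The level falls from 5081 FPKM for mt-Co1 at rank 1 to 72.0 FPKM for Cdx2 at rank 516 and 24.1 FPKM for Slmap at rank 2021.

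The signal was spread unevenly over genes. The 10 most abundant genes held 9.03% ± 0.56 of the summed protein-coding FPKM (SD, n = 4), the 100 most abundant 24.6% ± 0.25, and 732 genes held 50%. The share of the first 10 was 4.01% in reads, which do not correct for gene length, and 5.04% without mitochondrially encoded genes and globins. Of the 100 most abundant, 35 encoded cytosolic ribosomal proteins and 7 were encoded by the mitochondrial genome. The most abundant was mt-Co1, a subunit of cytochrome c oxidase, with 4734, 4678, 5524 and 5386 FPKM in controls 1 to 4. It was followed by mt-Nd1 at 3798 ± 408 FPKM and mt-Cytb at 3355 ± 354 FPKM (SD, n = 4), both of the respiratory chain. All 3 were higher in controls 3 and 4 than in controls 1 and 2. The most abundant nuclear gene was Eef1a1, which brings charged tRNAs to the ribosome, at 3564, 3633, 2527 and 2693 FPKM. It had the opposite order, with controls 1 and 2 above controls 3 and 4, as did the elongation factor Eef2 at 940, 938, 661 and 656 FPKM. Others among the first 20 were the ribosomal stalk genes Rplp1 (1948 ± 152 FPKM) and Rplp0 (1168 ± 204 FPKM), the histone-binding Ptma (913 ± 158 FPKM), Tpt1 (820 ± 98.0 FPKM), cytoplasmic actin Actb (780 ± 106 FPKM) and the chaperone Hsp90ab1 (725 ± 201 FPKM). Rpl41 was the steadiest of the 20, at 712, 694, 707 and 716 FPKM. The first gene of a specialised cell was Fabp1 at rank 22, a fatty acid carrier of absorptive cells.

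**Figure D2:**
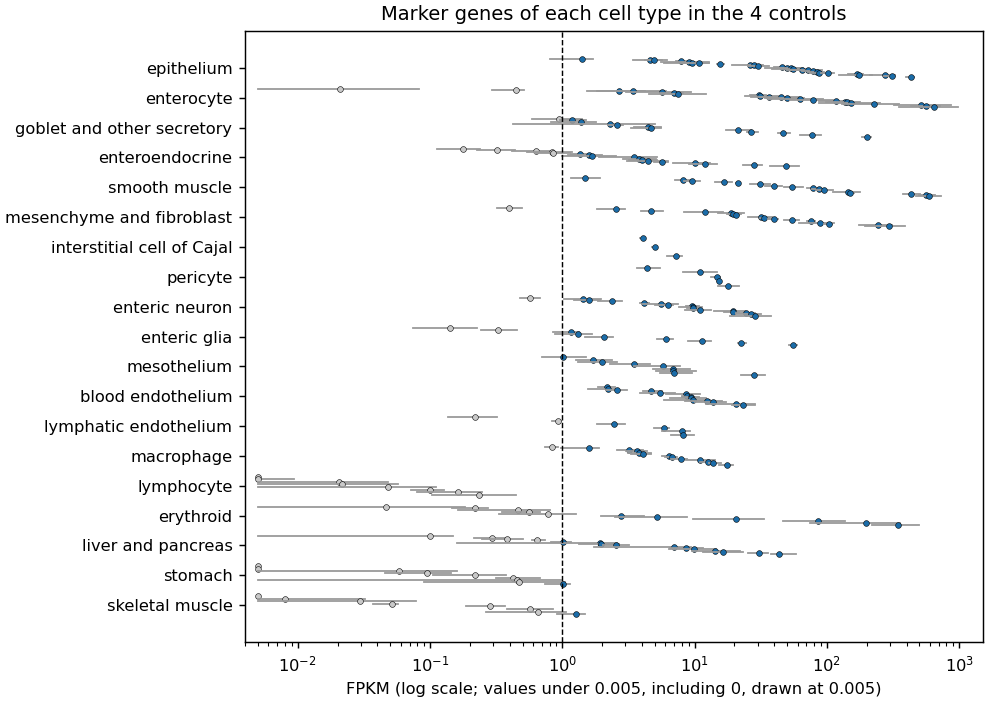
FPKM (log scale) of the marker genes of each cell type, with a point for the mean of the 4 controls and a grey line from the lowest to the highest control. Blue points are expressed genes, grey points lie under the dashed line at 1 FPKM, and no lymphocyte marker reaches that line while all 26 epithelial and all 16 smooth muscle markers do.

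The labelled tissue was present by its markers. All 26 epithelial markers were expressed, with a median of 51.5 FPKM beside 8.04 FPKM for all expressed genes. Lgals4, a galectin of the gut lining, was highest at 441, 454, 399 and 422 FPKM. The adhesion molecule Epcam had 329, 327, 269 and 316 FPKM (gene at chr17:87943407-87958557 in GRCm39). Control 3 was lowest for both genes. Krt8 and Krt19, keratins of simple epithelium, had means of 272 ± 51.1 and 175 ± 46.1 FPKM. Control 3 was the lowest library for 22 of the 26 markers, beside 40.2% of all expressed genes. Their summed level was 2459, 2397, 1849 and 2072 FPKM, which was 0.853% ± 0.077 of the protein-coding total.

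Absorptive genes were less even and had the other order. Of 22 enterocyte markers, 20 were expressed with a median of 56.5 FPKM, and 19 of the 20 were highest in control 3, which was the highest library for 22.5% of all expressed genes. Fabp1 (chr6:71176811-71182007 in GRCm39) had 353, 481, 978 and 782 FPKM. The apolipoprotein Apoa1, a protein of lipid particles, had 428, 459, 717 and 641 FPKM. Fabp2, a further fatty acid carrier, had 321, 354, 863 and 519 FPKM, and Rbp2, the intestinal retinol carrier, had 130, 143, 351 and 277 FPKM. In all 4 genes controls 1 and 2 lay below controls 3 and 4. The list summed to 1914, 2134, 4126 and 3253 FPKM, a range of 2.16-fold, and the median coefficient of variation (CV, the SD over the mean of the 4 libraries) of its members was 35.4% beside 12.4% for all expressed genes. Genes beyond the first 4 of a list, here and in later lists, were chosen after their values were seen. Lactase (Lct), the brush-border enzyme that digests milk sugar, had 26.7, 27.2, 50.1 and 42.3 FPKM. The intestinal alkaline phosphatase Alpi had 52.6, 52.2, 110 and 97.1 FPKM, with controls 3 and 4 high again. The peptidase Anpep was an exception, at 137 ± 9.30 FPKM with a CV of 6.77%. Sucrase-isomaltase (Sis), which digests sucrose after weaning, was near 0 at 0.444 ± 0.10 FPKM, and the trehalase gene Treh was at 0.0208 FPKM.

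Enterocyte genes also stood out by the letters at their starts. Sequences of 250 bases before to 50 bases after the start were taken from RefSeq (build GRCm38.p6) and found for 9905 of the 12361 expressed genes. The sequences printed here are the 100 bases before the start of 2 enterocyte genes and of 3 abundant genes of all cells, which carry the contrast in CG content. Capitals mark every CG and, where it begins 40 to 15 bases before the start, the TATAAA motif on the gene's strand.
Fabp1, chr6:71199779-71199878, plus strand: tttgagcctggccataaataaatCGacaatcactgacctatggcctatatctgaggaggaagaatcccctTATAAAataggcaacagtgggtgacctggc
Apoa1, chr9:46228530-46228629, plus strand: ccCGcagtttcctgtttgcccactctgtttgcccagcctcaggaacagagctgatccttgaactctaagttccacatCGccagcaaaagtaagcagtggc
Srsf2, chr11:116853095-116853194, minus strand: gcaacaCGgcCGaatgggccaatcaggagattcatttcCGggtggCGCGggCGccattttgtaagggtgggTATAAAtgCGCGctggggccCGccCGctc
Ppia, chr11:6415767-6415866, plus strand: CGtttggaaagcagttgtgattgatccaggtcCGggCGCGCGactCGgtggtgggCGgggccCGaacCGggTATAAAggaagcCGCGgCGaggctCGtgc
Rplp0, chr5:115559367-115559466, plus strand: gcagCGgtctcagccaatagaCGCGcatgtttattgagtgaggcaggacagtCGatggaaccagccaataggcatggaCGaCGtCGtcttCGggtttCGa

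In the 300 bases, Fabp1 had 3 CG and Apoa1 4, against 39 for Srsf2 (a splicing factor), 43 for Ppia (a prolyl isomerase) and 24 for Rplp0. Of 18 enterocyte genes with a sequence, 13 held fewer than 6 CG. That was the case for 9.36% of the 9905 expressed genes, for 31.3% of all 16912 promoters and for 86.0% of the 3042 promoters of genes with no read in any control. The median number of CG was 4 in the enterocyte list, 21 in the expressed genes and 2 in the genes with no read. TATAAA in the stated window was present in 2.88% of all promoters and in 1.18% of the expressed genes. Among expressed genes of at least 100 FPKM with a sequence, 8 of 261 held it. These ran from Fabp1, with a CV of 43.8%, and the enterocyte-high Mamdc4 (115, 98.9, 292 and 228 FPKM) to Srsf2, with a CV of 2.56% (121, 122, 116 and 123 FPKM). A match of letters describes the window and no more.

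Secretory markers were lower. Of 12 goblet and other secretory markers, 11 were expressed, and the list summed to 365, 383, 379 and 431 FPKM. Tff3, a peptide that protects mucosa, had 199, 206, 185 and 216 FPKM, and Spink4, a protease inhibitor of goblet cells, had 62.9, 70.5, 82.8 and 89.9 FPKM. Agr2, which helps fold mucins, had 46.2 ± 4.26 FPKM. The mucin gene Muc2 itself was low at 1.246, 0.823, 1.81 and 1.68 FPKM, and Atoh1, the factor that commits cells to the secretory fate, had 2.59 ± 0.32 FPKM. Among 17 enteroendocrine markers 12 were expressed. The hormone genes with the highest levels were secretin (Sct) at 47.8, 61.3, 36.8 and 49.8 FPKM, cholecystokinin (Cck) at 12.00 ± 2.46 FPKM and proglucagon (Gcg) at 12.96, 12.7, 6.89 and 8.004 FPKM. Neurog3, which starts the endocrine fate, had 4.804, 5.19, 1.89 and 1.998 FPKM, with controls 1 and 2 high and no overlap with controls 3 and 4.

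Smooth muscle genes were among the most abundant of any cell type. All 16 markers were expressed with a median of 66.6 FPKM and summed to 2521, 2730, 2002 and 2032 FPKM. Actg2, the enteric smooth muscle actin, had 661, 724, 470 and 495 FPKM. Acta2 (chr19:34218490-34232990 in GRCm39), the vascular and general smooth muscle actin, had 585, 658, 495 and 503 FPKM, and the myosin light chain Myl9 had 473, 506, 386 and 376 FPKM. All 3 were higher in controls 1 and 2 without overlap. Tropomyosin Tpm1 differed little between libraries (149, 159, 147 and 147 FPKM), as did smoothelin (Smtn), a late smooth muscle marker, at 21.1 FPKM with a CV of 3.31%. None of the 16 had a range of 2-fold. The 3 markers of interstitial cells of Cajal, the pacemaker cells of the gut, were low and even: the channel Ano1 at 7.19 ± 0.844 FPKM, the receptor Kit at 4.98 ± 0.194 FPKM and Etv1 at 4.04 ± 0.178 FPKM.

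Fibroblast and matrix genes were abundant and higher in controls 1 and 2. Of 16 mesenchymal markers 15 were expressed, summing to 1267, 1247, 848 and 804 FPKM. The fibrillar collagen Col1a1 had 389, 374, 216 and 194 FPKM, and Col3a1 had 310, 310, 180 and 174 FPKM. Of 44 collagen chain genes, 31 were expressed, and their sum of 1722, 1687, 1025 and 982 FPKM had a CV of 29.9%. Col4a1, of basement membranes, had 127, 123, 59.3 and 60.4 FPKM. The sum of 30 other matrix genes, of which 29 were expressed, had a CV of 15.47%, and among them were the collagen-binding Sparc at 231 ± 29.2 FPKM and lumican (Lum) at 75.6 ± 5.84 FPKM. The intermediate filament Vim had 110, 109, 97.5 and 95.6 FPKM. Foxl1, a marker of fibroblasts beneath the epithelium, had 16.4, 14.96, 8.28 and 8.28 FPKM. Twist2 was the marker not expressed, at 0.393 ± 0.076 FPKM.

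The enteric nervous system was seen at lower levels. Of 16 neuronal markers 15 were expressed with a median of 9.65 FPKM, summing to 209, 210, 146 and 155 FPKM. Tubb3, a neuronal tubulin, had 37.8, 37.2, 18.7 and 21.1 FPKM, and the intermediate filament Prph had 28.5, 31.8, 20.7 and 24.9 FPKM. Ret, the receptor for GDNF on the precursors of enteric neurons, had 11.0, 11.3, 7.64 and 8.70 FPKM. Controls 1 and 2 were higher for all of these genes. Of 9 glial and progenitor markers 7 were expressed, and the list summed to 104, 101, 96.6 and 97.8 FPKM, most of it from Ednrb and Erbb3. The sum was even, but the expressed markers had a median CV of 16.6% beside 12.4% for all expressed genes. The endothelin receptor Ednrb had 54.9 ± 3.18 FPKM, the receptor Erbb3 22.4 ± 1.402 FPKM and the factor Sox10 6.04 ± 0.836 FPKM. Gfap, of mature glia, was at 0.142 FPKM.

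Vessels, blood, immune cells and the outer lining differed in how even they were. All 14 blood endothelial markers were expressed and summed to 163, 160, 102 and 107 FPKM, and Cdh5, the junction protein of vessels, had 28.7, 27.6, 12.2 and 14.1 FPKM. Of 6 lymphatic markers 4 were expressed, with Ccl21a highest at 8.17 ± 1.37 FPKM, while the lymphatic factor Prox1 was just under the limit at 0.926 FPKM. All 9 mesothelial markers were expressed and summed to 48.6, 48.4, 81.5 and 72.0 FPKM, so that the outer lining, like the enterocyte list, was highest in control 3. Its top gene, the uroplakin Upk3b, had 22.3, 22.3, 34.2 and 33.5 FPKM. Of 13 macrophage markers 12 were expressed at a low level, with the complement genes C1qb at 17.6 ± 1.81 and C1qa at 13.9 ± 1.27 FPKM. The sum of the macrophage list had a CV of 7.51%, but its expressed markers had a median CV of 12.98% beside 12.4% for all expressed genes. No lymphocyte marker of 8 was expressed, and the list summed to 0.589 ± 0.16 FPKM.

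Erythroid RNA was the least even of the cell type lists. The adult beta globin Hbb-bs had 384, 497, 220 and 281 FPKM and the alpha globin Hba-a1 249, 354, 73.8 and 108 FPKM. Control 2 was the highest library for all 6 expressed genes of the list and control 3 the lowest for 5. Over all expressed genes those shares were 26.6% and 40.2%. The list summed to 768, 1037, 356 and 469 FPKM. Reads of the alpha globin pair Hba-a1 and Hba-a2, and of Hbb-bs and Hbb-bt, may be split between near-identical copies by the counting. The embryonic globin Hbb-y was low at 2.77 ± 0.95 FPKM and Hbb-bh1 near 0 at 0.0462 FPKM.

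Neighbouring organs were checked as well. Of 15 liver and pancreas markers 11 were expressed. The pancreatic carboxypeptidase Cpa1 had 58.1, 38.8, 38.0 and 39.9 FPKM, with control 1 apart. Chymotrypsinogen (Ctrb1), a pancreatic enzyme precursor that no list held, ranked 71 of the expressed protein-coding genes at 536, 278, 263 and 268 FPKM, again with control 1 apart. The trypsinogen Prss1 had 14.4, 6.45, 9.66 and 8.80 FPKM and the elastase Cela1 had 11.7, 6.56, 8.55 and 7.74 FPKM, control 1 being highest in both. Other genes differed: of the 11, control 1 was highest for 5, control 2 for 1, control 3 for 3 and control 4 for 2. Control 1 was highest for 32.2% of all expressed genes. The pancreatic amylase Amy2a1 was highest in control 3, at 30.1, 23.1, 123 and 82.7 FPKM. The part of pancreatic tissue in these levels was not tested. The liver secretory genes Ttr and Afp had 30.5 ± 4.78 and 16.4 ± 5.09 FPKM, while albumin (Alb) was near 0 at 0.1005 FPKM. Only Sox2 of 9 stomach markers reached the limit, at 1.004 ± 0.184 FPKM, with the pump gene Atp4b and Tff1 at 0 in every library. Only Ckm of 8 skeletal muscle markers did, at 1.26 ± 0.243 FPKM, and the muscle factor Myod1 was at 0.008 FPKM. None of 1103 olfactory receptor genes and none of 348 vomeronasal receptor genes was expressed.

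**Figure D3:**
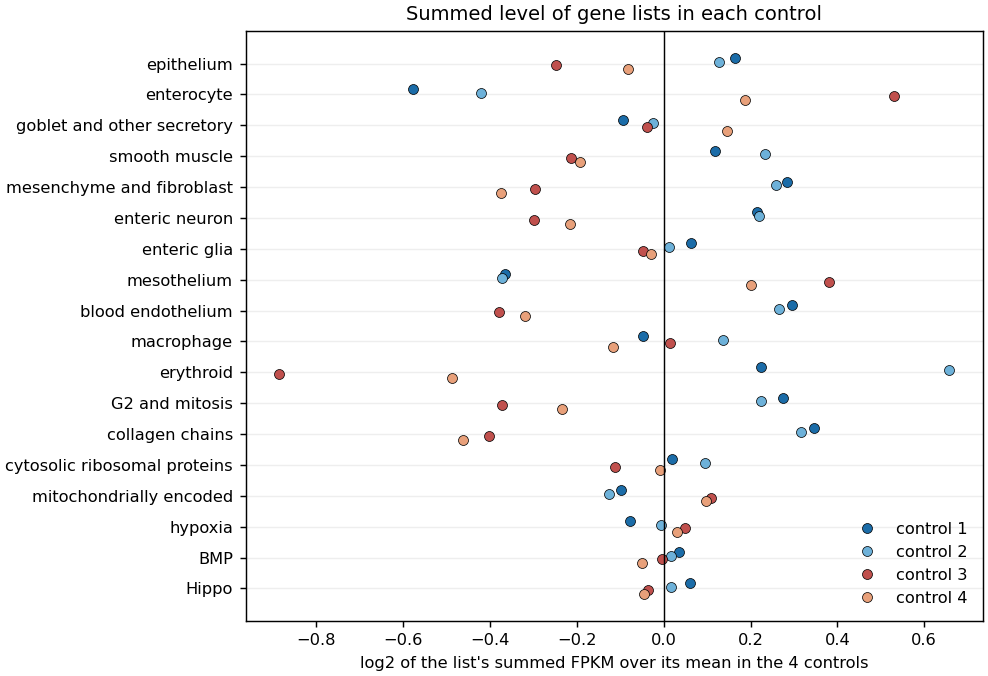
log2 of the summed FPKM of each gene list in a control over the list's mean in the 4 controls, with 1 point per control. Enterocyte and mesothelium sums lie lowest in controls 1 and 2 and highest in control 3, erythroid, blood endothelial and collagen sums lie higher in controls 1 and 2 than in controls 3 and 4, and the BMP and Hippo sums have a CV of 2.51% and 3.45%.

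Proliferation genes were high throughout. All 20 genes of the G2 and mitosis list were expressed with a median of 27.0 FPKM, and their sum was 743, 718, 475 and 522 FPKM. The mitotic activator Cdc20 had 75.5, 72.8, 42.4 and 47.7 FPKM, the ubiquitin-conjugating Ube2c 72.8, 70.3, 40.7 and 50.3 FPKM, and the topoisomerase Top2a 61.0, 59.3, 36.4 and 42.1 FPKM. Controls 1 and 2 lay above controls 3 and 4 for all 3. Control 3 was lowest for 17 of the 20 genes, beside 40.2% of all expressed genes. Of the 20 replication genes, all expressed, Pcna was the highest and most even of the top 4, at 107, 117, 102 and 103 FPKM, and the helicase subunit Mcm4 had 59.4, 59.0, 31.6 and 37.9 FPKM. Among inhibitors of the cell cycle, the imprinted Cdkn1c stood out with 181, 189, 209 and 206 FPKM, against 15.9 ± 1.59 FPKM for Cdkn1b, while Cdkn2a was near 0 at 0.214 FPKM. Of 19 genes that respond at once to stimulation, 16 were expressed, but the usual indicator Fos was low at 1.21 ± 0.26 FPKM and Egr2 was at 0.017 FPKM.

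The promoters of the mitotic genes shared letters too. Those of the 3 most abundant are printed here over the 100 bases before the start (RefSeq, GRCm38.p6), because CCAAT recurs in them. Capitals mark CCAAT or its reverse complement ATTGG.
Cdc20, chr4:118437344-118437443, minus strand: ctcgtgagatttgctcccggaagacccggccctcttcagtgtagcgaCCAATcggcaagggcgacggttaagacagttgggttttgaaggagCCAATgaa
Ube2c, chr2:164769829-164769928, plus strand: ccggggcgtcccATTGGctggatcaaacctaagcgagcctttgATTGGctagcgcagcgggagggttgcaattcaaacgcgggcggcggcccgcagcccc
Top2a, chr11:99024190-99024289, minus strand: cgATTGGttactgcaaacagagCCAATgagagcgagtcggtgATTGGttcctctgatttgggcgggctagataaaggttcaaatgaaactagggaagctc

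Of 17 mitotic genes with a sequence of 300 bases, 16 held CCAAT on either strand and 11 held it at least 2 times. Birc5 was the one without it. Over all 16912 promoters 39.0% held it and 13.4% held it at least 2 times, and among the 18 enterocyte genes 3 held it.

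Metabolic genes gave the following picture. All 15 glycolysis genes were expressed, with lactate dehydrogenase Ldha at 354, 366, 305 and 328 FPKM and the triose isomerase Tpi1 at 258, 263, 220 and 246 FPKM. All 10 hypoxia-responsive genes were expressed, and their sum was 292, 306, 318 and 314 FPKM, although 2 of the 10, Vegfa and Ankrd37, had a 2-fold range. Among them were the stress gene Ndrg1 at 130 ± 5.44 FPKM and the glucose transporter Slc2a1 at 29.5, 29.2, 28.5 and 29.4 FPKM. All 19 cholesterol synthesis genes were expressed with a median CV of 8.40%. The sterol demethylase Cyp51 had 40.4, 41.0, 40.5 and 40.02 FPKM. Abundant genes outside the lists included ornithine aminotransferase (Oat) at 761, 766, 502 and 480 FPKM, the urea cycle enzyme Cps1 at 448, 435, 238 and 256 FPKM, the desaturase Scd2 at 472, 462, 476 and 460 FPKM, and Lypd8, a protein of the apical surface, at 519, 489, 576 and 608 FPKM. Scd2 was even, whereas Oat and Cps1 were higher in controls 1 and 2 without overlap.

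Genes of a transcription factor set, chosen by domain, were much less abundant than the most abundant genes above. The set held 1084 genes that the file's own column assigns to 1 of 53 chosen domains. Not all of these domains bind DNA: 304 genes entered by a KRAB and 42 by a SCAN domain. Of the 1084 genes, 633 (58.4%) were expressed, with a median of 4.57 FPKM, and the expressed KRAB genes had a median of 2.71 FPKM. None of the set reached 100 FPKM, and together they held 2.17% ± 0.034 of the protein-coding FPKM. The set does not hold every DNA-binding protein: the Y-box protein Ybx1, outside it, had 397, 395, 284 and 297 FPKM. The highest were the zinc finger factor Maz (97.2 ± 14.5 FPKM), the chromatin protein Hmgb2 (96.0 ± 12.8 FPKM) and Hnf4a, a factor of the intestinal lining, at 87.7, 88.0, 65.3 and 72.0 FPKM. The chromatin protein Ssrp1 (76.3 ± 20.3 FPKM) and the stress factor Atf4 (75.8 ± 3.69 FPKM) followed. Cdx2 (chr5:147237615-147244080 in GRCm39), which sets intestinal identity, had 91.6, 82.9, 52.8 and 60.8 FPKM and its relative Cdx1 had 71.5, 70.2, 38.7 and 40.7 FPKM. Hnf4g, the relative of Hnf4a, had the opposite order at 46.9, 42.6, 64.1 and 58.7 FPKM. The epithelial Elf3 had 65.3 ± 12.1 FPKM, and Sox9, of progenitor cells, had 12.8, 11.6, 5.59 and 6.44 FPKM. On the mesenchymal side, Nkx2-3 had 68.3, 65.5, 51.3 and 49.5 FPKM and Foxf1, a target of Hedgehog signals in gut mesenchyme, 61.7, 59.4, 47.6 and 47.9 FPKM. Of the 6 GATA factors found by symbol only Gata4 (28.0 ± 2.07 FPKM), Gata6 (15.6 ± 0.95 FPKM) and Gata5 (6.01 ± 1.105 FPKM) were expressed, and of 13 T-box genes found by symbol only Tbx2 and Tbx3. By domain, 3 of 17 T-box genes and 42 of 181 homeobox genes were expressed, against 203 of 304 genes with a KRAB domain.

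**Figure D4:**
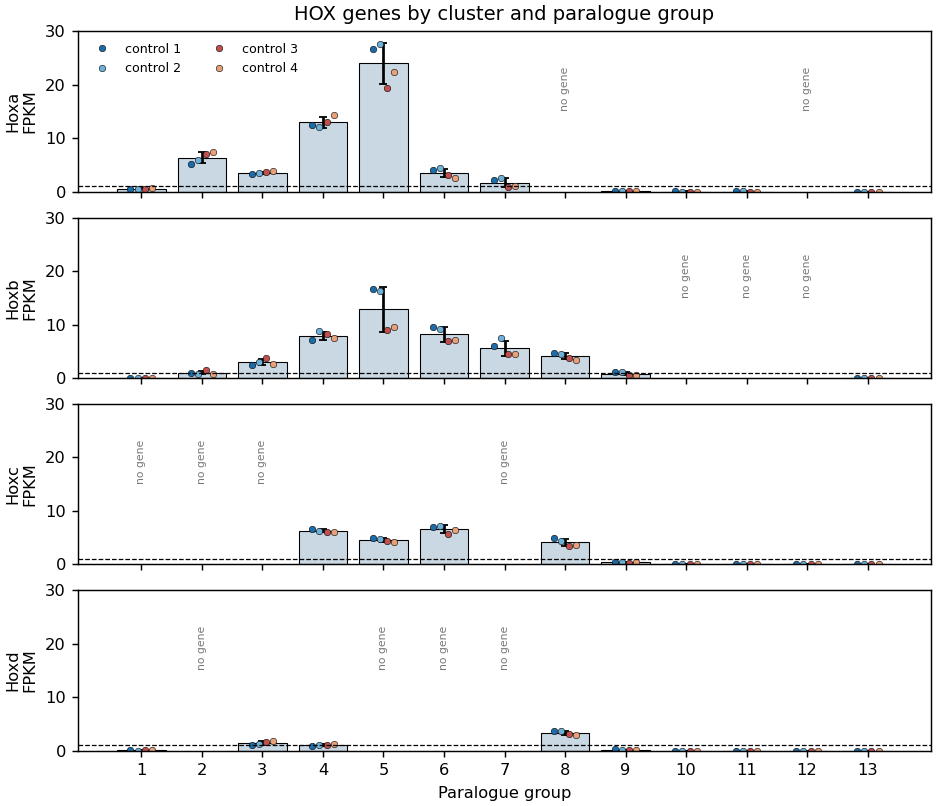
FPKM of the 39 HOX genes by cluster (rows) and paralogue group (x axis), with bars for the mean, error bars for the SD and points for the 4 controls. Bars stand above the dashed line at 1 FPKM for all genes of groups 4 to 8 and for none of groups 9 to 13, and Hoxa5 is highest at 24.0 FPKM.

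HOX genes, which mark position along the body axis, had a boundary when their means were held to the limit of 1 FPKM. Of 39 genes 20 were expressed: all 15 of paralogue groups 4 to 8, 5 of 8 in groups 1 to 3, and none of 16 in groups 9 to 13, of which 9 were at 0 in every library. The highest was Hoxa5 (chr6:52178734-52181567 in GRCm39) with 26.6, 27.5, 19.4 and 22.5 FPKM, followed by Hoxa4 at 12.997 ± 1.04 FPKM and Hoxb5 at 16.7, 16.2, 8.92 and 9.46 FPKM. Hoxb9, just past the boundary, had 1.09, 1.14, 0.523 and 0.572 FPKM. Single libraries crossed the limit on the other side too. Hoxd4 had 0.889, 1.02, 1.09 and 1.27 FPKM, and Hoxa7 had 2.15, 2.61, 0.935 and 1.06 FPKM. Groups 4 to 8 summed to 107 ± 13.8 FPKM and groups 9 to 13 to 1.55 ± 0.54 FPKM. The A cluster summed to 52.9 ± 3.81 FPKM and the D cluster to 6.09 ± 0.073 FPKM.

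Signalling genes were mostly at moderate and even levels. In the Hedgehog pathway 13 of 14 genes were expressed. The ligand Ihh had 29.98, 27.8, 24.8 and 25.5 FPKM, and Shh was lower and uneven at 12.2, 9.62, 4.29 and 5.53 FPKM, while Dhh was near 0 at 0.0800 FPKM. The receptor and target Ptch1 had 26.9 ± 2.35 FPKM, the signal transducer Smo 26.6 ± 4.32 FPKM, the co-receptor Gas1 39.4 ± 2.64 FPKM and the target factor Gli1 14.1, 12.3, 14.998 and 14.5 FPKM. Shh and Smo were higher in controls 1 and 2 without overlap, while the highest Gli1 value was in control 3.

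Of the 66 list sums that of the BMP genes had the lowest CV, 2.51%, with 21 of 22 genes expressed and a sum of 349, 345, 340 and 329 FPKM. The ligand Bmp4 had 32.5, 32.5, 33.3 and 31.4 FPKM and the BMP-responsive inhibitors of bHLH factors Id2 and Id1 had 47.8 ± 1.67 and 47.1 ± 1.201 FPKM. The secreted BMP antagonists Grem1 and Nog had 25.1 ± 3.15 and 6.65 ± 0.9987 FPKM. Of 19 WNT ligands 5 were expressed, with Wnt5a highest at 9.69, 8.80, 8.97 and 7.55 FPKM, whereas 9 of 10 Frizzled receptors were, with Fzd1 at 27.5 ± 3.26 FPKM. Beta-catenin (Ctnnb1) had 192 ± 18.8 FPKM, the secreted Wnt inhibitor Sfrp1 60.2 ± 9.90 FPKM, the Wnt target Axin2 5.76, 5.17, 3.68 and 3.39 FPKM, and the stem cell receptor Lgr5 1.65, 1.61, 1.44 and 1.66 FPKM. The Wnt effector Lef1 was at 0 in 3 libraries and at 0.0258 FPKM in control 4.

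In the Notch list 14 of 15 genes were expressed, led by the target Hes1 (28.7 ± 1.89 FPKM) and the ligand Dll1 (11.4 ± 0.683 FPKM). All 6 PDGF genes were expressed, with the receptors Pdgfra at 21.5, 19.9, 20.4 and 20.1 FPKM and Pdgfrb at 23.5, 21.6, 15.7 and 14.9 FPKM. Of 22 FGF ligands only 6 were expressed, none above 6.58 FPKM, among them Fgf9 (4.28 ± 0.725 FPKM), which is made by the epithelium, and all 4 receptors were. Retinoic acid synthesis was represented by Aldh1a2 at 46.0 ± 3.86 FPKM. Among 18 imprinted genes 16 were expressed, with the growth regulators Mest (95.8 ± 16.1 FPKM) and Grb10 (94.2 ± 13.98 FPKM) next after Cdkn1c. Fetal growth genes included Hmga1 at 130, 154, 68.1 and 84.3 FPKM and Hmga2 at 29.4, 28.7, 15.7 and 19.05 FPKM, while Lin28a and Lin28b were near 0 at 0.0302 and 0.311 FPKM.

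Slmap, the gene floxed in all embryos of the series, is a membrane-associated subunit of STRIPAK, a phosphatase complex that restrains the Hippo kinases. In controls 1 to 4 it had 23.6, 23.3, 25.4 and 24.2 FPKM (24.1 ± 0.915, SD, n = 4), which placed it at rank 2021 of the expressed genes with a CV of 3.80% (gene at chr14:26134323-26256086 in GRCm39). The kinase gene Stk24, of the GCKIII family that binds STRIPAK, had 22.3, 20.9, 16.2 and 18.0 FPKM at rank 2655. Of 18 genes of the STRIPAK and GCKIII list 17 were expressed, with the phosphatase 2A subunits Ppp2r1a (85.9 ± 20.7 FPKM) and Ppp2cb (61.7 ± 7.41 FPKM) highest and Strip2 near 0 at 0.1998 FPKM. Of 19 Hippo genes 18 were expressed with a median CV of 6.96%. The kinases Stk3 and Stk4 had 6.35 ± 0.42 and 12.3 ± 1.42 FPKM, Lats1 had 16.1, 15.6, 16.5 and 16.2 FPKM, and the scaffold Mob1a 45.1 ± 1.58 FPKM. Of the pathway's effectors, Yap1 had 22.2, 21.8, 15.3 and 16.7 FPKM and Wwtr1 18.97, 18.6, 17.3 and 16.1 FPKM. Their usual targets Ccn1 and Ccn2 had 13.4 ± 1.46 and 10.1 ± 1.995 FPKM, and the target Ankrd1 was near 0 at 0.0457 FPKM.

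**Figure D5:**
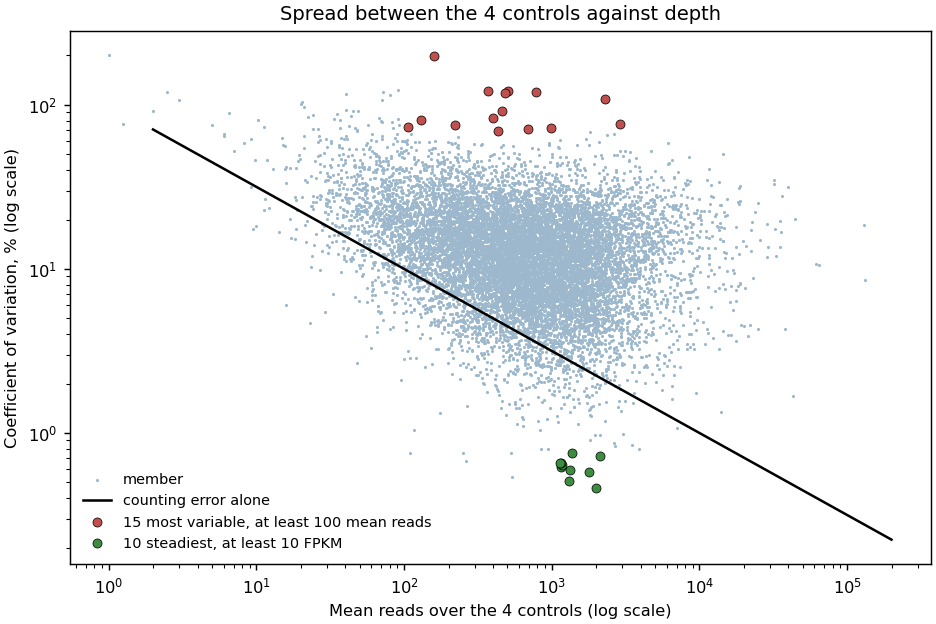
CV over the 4 controls in percent (log scale) against mean reads (log scale) for each expressed gene. The black line is the CV that counting error alone gives, red points are the 15 most variable genes of at least 100 mean reads (CV 69.4% to 199%), and green points are the 10 steadiest of at least 10 FPKM, all under the line.

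Over the 12361 expressed genes the median CV was 12.4%, with 5% of genes under 3.63% and 5% over 34.2%. Counting error alone gave a median of 3.93%, and with it removed the median CV was 11.2%. Within controls 1 and 2 alone the median CV was 4.25%, and within controls 3 and 4 alone it was 5.90%, each over its own expressed genes. The median SD of 2 values is lower than that of 4 by construction, so these are not on the same footing as the 12.4%. A CV under 10% was found for 4704 genes (38.1%) and one over 50% for 175 genes (1.42%). The highest library was at least 2 times the lowest for 736 genes (5.95%). Over the same genes, controls 1 and 2 differed by at least 2-fold for 56 and controls 3 and 4 for 64. Low genes were the least even, with a median CV of 18.8% at 1 to 2 FPKM and 10.9% at 10 to 30 FPKM, but the 335 genes of 100 FPKM or more were again at 13.3% where counting error gave 1.16%. Control 3 was the lowest library for 40.2% of genes.

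The most variable genes fell into a few kinds. Among the 100 most variable with at least 100 mean reads, 78 were highest in control 3, and 46 and 41 were lowest in controls 1 and 2. Over all expressed genes those shares were 22.5%, 19.9% and 19.6%. The first was Zfp990, a zinc finger gene (chr4:145237329-145265758 in GRCm39), at 0, 0, 10.5 and 0.0324 FPKM, so a single library carried it. The Y-linked Ddx3y had 14.5, 0, 20.9 and 0.0327 FPKM and Eif2s3y 11.1, 0, 17.5 and 0 FPKM, and Uty and Kdm5d followed the same order. Controls 1 and 3 thus held Y-linked RNA, which was at or near 0 in controls 2 and 4, a split that cuts across the pairs of libraries. Clec2h, a C-type lectin gene, had 22.7, 33.8, 130 and 64.6 FPKM and the pancreatic amylase Amy2a1 had 30.1, 23.1, 123 and 82.7 FPKM, both highest in control 3. The complement factor Cfi, highest in control 4, had 3.97, 5.49, 15.9 and 20.2 FPKM.

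The steadiest genes of at least 10 FPKM had CVs below their own counting error, so their order among themselves is not resolved at this depth. The first was Pcgf3, a Polycomb subunit, at 12.5, 12.4, 12.4 and 12.5 FPKM with a CV of 0.461% beside a counting error of 2.23%. Sin3b, a co-repressor subunit, had 10.5, 10.5, 10.6 and 10.6 FPKM, and Sec62, of protein translocation into the endoplasmic reticulum, 24.6, 24.3, 24.3 and 24.3 FPKM. The tight junction gene Cldn8 had 29.0, 28.7, 28.7 and 29.1 FPKM. In all, 881 expressed genes (7.13%) had a CV at or below their counting error.

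Some levels are uncertain because reads may be shared with copies or overlapping genes, and the sources used here do not say what the counting did with such reads. Rpl34 had 2.64, 3.62, 101 and 94.5 FPKM while its pseudogenes summed to 943, 1101, 712 and 687 FPKM. Rps2 had 1.48 ± 0.49 FPKM and its pseudogenes 1018 FPKM in the mean, and Rps10 had 4.03 ± 1.34 FPKM and its pseudogenes 508 FPKM. Of 83 cytosolic ribosomal protein genes 61 had named pseudogenes in the file, and in 7 these exceeded the gene. The mitochondrial mt-Co2 had 161 ± 23.4 FPKM, and Gm28661, an unprocessed pseudogene on chromosome 1, had 165 ± 27.2 FPKM. The mitochondrial mt-Co3 had 91.3, 103, 277 and 75.8 FPKM and mt-Atp6 had 88.2, 96.9, 167 and 35.7 FPKM. Gm10925, also an unprocessed pseudogene on chromosome 1, had 135, 155, 238 and 52.9 FPKM. The smooth muscle gene Tagln was at 1.495 ± 0.34 FPKM, and 58.0% of its span is overlapped by 2 other genes, of which Pcsk7 on the other strand had 8.15 FPKM. Igf2, a fetal growth factor, had 40.8, 34.8, 28.8 and 28.4 FPKM, and nearly all of its span is overlapped by other genes, among them Igf2os at 29.1 FPKM. The whole span of Oat lies within that of Fgfr2. Gapdh, a common reference gene, had 1.44, 15.6, 4.64 and 5.22 FPKM, beside 247 ± 19.3 FPKM for Tpi1 of the same pathway. Its 3 named pseudogenes summed to 0.0292 FPKM and 1.43% of its span is overlapped. The part of read sharing in these levels was not tested.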

How the data were processed

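RNA was sequenced from whole small intestines of E15.5 embryos. The authors deposited 1 table of FPKM values with gene lengths. For tools, the submitters' processing notes list featureCounts, HISAT2, fastp, CASAVA and DESeq2 1.20.0, and GRCm39 as the build. Roles, settings and strand use were not stated there. Slmap-cKO columns were not read. FPKM times gene length, over the smallest positive value of a library, gave whole reads for 100% of values within 0.01, and these served for depth, the minimum of reads, 1 alternative and counting error (1 over the square root of mean reads). The counting-free CV is the square root of the squared CV less that error squared. This calculation was tested on simulated data. The 3 blank lines of the table were skipped.

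Members, gene lists and symbol patterns were chosen with earlier results of these data known. Genes named were taken from the 20 most abundant, the 15 highest of the transcription factor set, up to 4 per list and markers near 0. Others were the 15 most variable of at least 100 mean reads, the 10 steadiest of at least 10 FPKM, 3 on each side of the limit, Slmap and Stk24. Some of these are not reported here, and other genes named were chosen after their values were seen. Where a symbol has several IDs, the highest was used. Promoters were matched by gene ID, symbol or older symbol for 80.1% of expressed genes. No comparison between groups was made. Alternatives were other scalings, limits and summaries, each control left out, and each pair of libraries alone. Python 3.11.15, numpy 2.4.6, pandas 2.3.3 and scipy 1.17.1 were used.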

Additional observations from a re-analysis of the deposited data

Results flagged for a closer look

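In 9 of 407 sets of 4 values (327 genes, 66 lists, 6 library measures and 8 noncoding genes), 1 control lay far from the other 3: the gap to its nearest neighbour, over the whole range, passed the 95% critical value of Dixon. Chance flags about 1 in 20 independent groups, and 9 of 407 is below that share. That rate does not strictly apply here. Some genes, such as Zfp990 and Sec62, were named for their spread in these same values, and lists share genes with the single sets. Control 1 was high for the pancreatic enzyme genes Cpa1 (58.1 FPKM against 38.0 to 39.9, gap over range 0.906) and Ctrb1 (536 against 263 to 278, 0.944) and for the summed liver and pancreas list (172 against 127 to 129, 0.959). It was low for the pericyte channel gene Kcnj8 (14.7 against 15.4 to 15.6, 0.830) and high for Sec62 (24.6 against 24.3 in each other control, 0.968), and the CVs of 2.65% and 0.574% were below the counting errors of 3.90% and 2.36%. Control 3 alone held Zfp990 (10.5 FPKM against at most 0.0324, 0.997), and its lymphatic endothelium sum was low (20.5 against 27.1 to 27.4, 0.962). It was also high for mt-Co3, a further subunit of cytochrome c oxidase (277 against 75.8 to 103, 0.863). The level of mt-Co3 is among those given above as uncertain. Control 4 was high for the goblet cell gene Fcgbp (30.2 against 25.1 to 25.7, 0.878).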

How the results depend on the processing

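No paired analysis was possible because a single group was described. The number of expressed genes stayed within 1.5 times the main count under every alternative, from 11010 to 14287. The share of the 10 most abundant genes was 8.03% over all biotypes, 4.01% in reads and 5.04% without mitochondrially encoded genes and globins. For the 100 most abundant it was 21.9%, 14.2% and 20.1%, and 24.9% in controls 3 and 4 alone. The median CV was 10.9% to 12.4% with a control left out, lowest without control 3. It was 4.25% in controls 1 and 2 alone and 5.90% in controls 3 and 4 alone, 11.2% at a limit of 5 FPKM and 16.7% without a limit. As an SD it was 0.15 of log2(FPKM + 1) and 0.18 of log2(FPKM + 0.1). Without counting error it was 9.67% to 11.3% with a control left out, and 1.43% and 3.81% in the pairs alone. Genes with a 2-fold range numbered 431 (without control 3) to 605 with a control left out, and 43 and 67 in the pairs alone (each over its own expressed genes). They numbered 257 at a limit of 5 FPKM, 337 from FPKM + 1 and 457 at 100 mean reads. After rescaling each library to the same larger sum they numbered 1725. The limit of 1 was kept there, so that count is over 14287 genes, with lower ones than the 12361 of the main result. The pairs alone were added after seeing the data. Of 66 list sums, 0 moved by more than their SD under division by size factors, and all 66 rise by construction under that rescaling. Leaving out controls cannot move a sum that far, so it says nothing of their stability. The cause of the other differences was not tested. Depth limits values near 1 FPKM, at about 16 reads per kilobase.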

Other observations

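Long noncoding RNAs were outside the protein-coding description. H19, an imprinted RNA, was the second most abundant gene of all kinds at 3714, 4034, 3681 and 4190 FPKM, which was even across the 4 controls. Xist, which silences an X chromosome in female cells, had 0.276, 93.7, 0.0228 and 240 FPKM, the reverse of the Y-linked genes. Norad was even at 48.1, 47.3, 46.9 and 46.6 FPKM. Malat1, a nuclear RNA, had 23.0, 24.2, 71.9 and 74.2 FPKM. Fendrr, which lies beside Foxf1, had 17.5, 16.0, 35.1 and 36.6 FPKM, and the imprinted Meg3 had 13.4, 15.4, 33.3 and 33.0 FPKM. In these 3 RNAs controls 3 and 4 lay above controls 1 and 2 without overlap, while Foxf1 itself had the opposite order. The lncRNA genes held 2.42% ± 0.41 of the summed FPKM of all genes, and processed pseudogenes held 5.73% ± 0.35 of it.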
